A study of Mus musculus with 78 samples.

Results

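The 473 regions described here carried H3K9me3, the histone mark of constitutive heterochromatin, in DMSO-treated mESCs and had no H3K9me3 peak after 24 h of TRIM28 degradation. Candidates were chosen by fold enrichment, the signal of a peak divided by its local background, as the 10000 highest of 118318 deposited peaks of DMSO replicate 1. Those that overlapped by at least 1 bp a peak of the 10000 highest in DMSO replicate 2 and in DMSO replicate 3 numbered 5872 and are called strong shared regions. Among them, 473 (8.06%) overlapped no deposited peak of dTAG-13 replicate 2 or 3 (lost regions), 4817 overlapped a peak in both (kept regions) and 582 overlapped a peak in only 1 of the libraries (partly kept regions). The fold enrichments in DMSO and the absence of peaks in dTAG-13 replicates 2 and 3 chose the regions, so they are given as a description without a test.

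All cells were mouse embryonic stem cells (mESCs) of line V6.5, grown on irradiated fibroblast feeders that were depleted in 2 rounds before the cells were plated on gelatin for these assays, in which both Trim28 alleles encode a fusion of TRIM28 with an FKBP degron tag. The line was made from picked colonies of sorted cells, and control cells carry the same tag. dTAG-13 is a small molecule that brings the tagged protein to the proteasome, and it was given at 500 nM, with DMSO, its solvent, as the control. ChIP-seq was done after 24 h of DMSO or dTAG-13, and each condition has 3 H3K9me3, 3 H3K27Ac, 2 MED23 (a Mediator subunit) and 2 RNA polymerase II (RNAPII) libraries. RNA-seq compared DMSO with 2, 6, 24 and 96 h of dTAG-13, and TT-SLAM-seq, which reads RNA labelled with 4-thiouridine while it is made, compared DMSO with 2, 6 and 24 h, each with 3 libraries per group. The DMSO groups of both assays are titled 0 h, and no DMSO group is labelled with the later times. In these assays an effect of time in culture therefore cannot be told apart from that of dTAG-13. A derived line, the shERV line, carries hairpins against RNA of endogenous retroviruses (ERVs) that doxycycline (Dox) switches on, and was sequenced in DMSO, after 24 h of dTAG-13, and with Dox before 24 h of dTAG-13, with 3 libraries each. Its treatment notes list Dox for every group, so these groups follow the sample titles. Nothing in the labels says that replicates came from separate cultures, so p-values measure the spread between these samples, which may be technical.

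TRIM28 is a corepressor that KRAB zinc finger proteins bring to their DNA sites, where it recruits the methyltransferase SETDB1, which writes H3K9me3, and HP1 proteins, which bind it. In mESCs this pathway silences ERVs such as IAP, MMERVK and MMETn elements, keeps the marked allele of imprinted loci silent and marks the exons of many zinc finger genes. H3K27Ac, Mediator and RNAPII mark active enhancers and promoters, and their peaks are therefore given for each of these regions.

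Libraries differed in the number of peaks their authors called. H3K9me3 libraries held from 104579 to 126470 deposited peaks in DMSO, but 11474, 105690 and 147611 in dTAG-13 replicates 1 to 3. MED23 libraries held from 58925 to 63045 peaks in DMSO and from 14546 to 15333 after dTAG-13. The first 24 h RNA-seq library had the lowest depth, with a ratio of read coverage to FPKM of 1.90 against 4.26 to 7.92 in the other time course libraries. Trim28 mRNA, which the degron does not target, was at 622, 622 and 626 TPM in DMSO and at 369, 365 and 382 TPM at 24 h. The summed TPM of 10 ESC markers ran from 3465 to 3617 in DMSO, from 2214 to 2324 at 24 h and from 394 to 454 at 96 h, and that of 10 feeder fibroblast markers from 303 to 320.0, from 315 to 329 and from 1883 to 1995.

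The sequences of the lost regions differed in kind, and a few that the results below refer to are shown first (GRCm38, the mm10 build, read 5′ to 3′). The window chr2:157560337-157560436, plus strand, lies in the lost region around the start of Nnat, an imprinted gene, in no exon of a coding transcript but in an exon of a retained-intron transcript of Nnat and in the antisense gene Blcap. The window chr7:142669432-142669531, plus strand, lies upstream of the imprinted gene Igf2, in the gene Gm49394 and in an exon of the noncoding Igf2os. In these sequences capitals mark TGCCGC or its reverse complement GCGGCA, the hexamer that the KRAB zinc finger protein ZFP57 recognises at imprinted loci.
Nnat region: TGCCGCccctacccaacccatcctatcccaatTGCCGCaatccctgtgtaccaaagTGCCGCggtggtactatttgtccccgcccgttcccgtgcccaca
Igf2 region: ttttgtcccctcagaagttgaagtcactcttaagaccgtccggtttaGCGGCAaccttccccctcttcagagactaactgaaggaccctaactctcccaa

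The window chr11:70367491-70367690, plus strand, is between genes in the lost region upstream of Alox15, where MED23, H3K27Ac and RNAPII peaks appeared after dTAG-13. Capitals mark the 39 bases that run from the MED23 summit of one dTAG-13 library to that of the other.
Alox15 upstream region: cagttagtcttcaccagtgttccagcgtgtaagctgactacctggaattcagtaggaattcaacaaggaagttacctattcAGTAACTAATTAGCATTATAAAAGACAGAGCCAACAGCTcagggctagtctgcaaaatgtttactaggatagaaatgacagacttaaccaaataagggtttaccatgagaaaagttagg

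A further 13 lost regions had like sequences with one another and with no IAP, MMERVK, MMETn or L1 element, and 11 of them share the stretch below, in which capitals mark a run of 12 bases found in all 11. Shown are chr2:164526179-164526278, plus strand, chr6:87960118-87960218, minus strand, and chr9:15371354-15371454, plus strand, which are between genes, and chr19:39810997-39811096, plus strand, in an intron of Cyp2c40.
chromosome 2: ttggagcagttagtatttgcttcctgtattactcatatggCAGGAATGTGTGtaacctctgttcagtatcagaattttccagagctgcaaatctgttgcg
chromosome 6: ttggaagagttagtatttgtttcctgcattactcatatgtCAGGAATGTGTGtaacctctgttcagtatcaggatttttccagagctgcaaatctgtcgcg
chromosome 9: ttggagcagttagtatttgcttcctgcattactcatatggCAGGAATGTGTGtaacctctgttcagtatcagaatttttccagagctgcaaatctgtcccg
chromosome 19: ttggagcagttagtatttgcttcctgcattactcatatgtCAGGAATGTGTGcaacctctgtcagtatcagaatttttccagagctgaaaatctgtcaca

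Lost regions were short. Their median width was 1313 bp, from 109 to 11924 bp, against 3084 bp for kept regions, and together they covered 744 kb. Their median fold enrichment was 4.48, 3.87 and 3.93 in DMSO replicates 1 to 3, against 4.80, 4.31 and 4.22 for kept regions. The share lost fell from 18.2% in the narrowest of 4 equal width classes of strong shared regions to 0.954% in the widest, and from 14.3% in the lowest of 4 classes of mean fold enrichment to 2.72% in the highest. dTAG-13 replicate 1, which the rule did not use, had a peak on 0 of the 473 lost regions, on 35 of 582 partly kept regions and on 1945 of 4817 kept regions (40.4%), although this library had few peaks anywhere. The regions just inside the rank limit had a fold enrichment of 4.0029, 4.00354 and 4.00428 in DMSO replicate 1, and the otherwise similar regions just outside it 3.99577, 3.99296 and 3.99267.

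The 5 lost regions with the highest mean fold enrichment in DMSO lay in an exon of Spred2, a gene of a Ras pathway inhibitor (7.03, 6.12 and 5.15 in the 3 libraries), at Nnat (6.30, 6.52 and 5.25), upstream of Igf2 (5.71, 5.81 and 5.19), between genes at chr9:88651728-88652989 (7.30, 4.97 and 4.35) and at Pxt1 and Gm16191 (5.28, 5.78 and 5.25). Nnat and Igf2 are expressed from the paternal allele only in most tissues, and the region at Nnat, 9321 bp wide and 8.79% repeat-masked, spans the start of the gene. It held 8 copies of TGCCGC on both strands and 212 CpG, and the Igf2 region held 1 copy and 40 CpG. In all, 27.1% of lost regions held TGCCGC in their central 1000 bp (both strands), against 25.4% of all strong shared regions, so the hexamer was about as common in either set.

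Most lost regions were between genes (289, 61.1%), and 110 lay in introns, 42 in exons and 32 within 1 kb of a gene start. Kept regions lay between genes more often (70.4%). The repeat-masked share had a median of 68.8% in lost and 94.2% in kept regions, and 119 lost regions (25.2%) were under 50% repeat-masked, against 309 kept regions (6.41%). Widths differ between the sets, as given above, and their part in these shares was not tested.

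The ERV families were unequally represented. Each region was compared by sequence with elements of 4 families, and 86 lost regions (18.2%) were like IAP, 49 (10.4%) like MMERVK, 32 (6.77%) like MMETn, 85 (18.0%) like L1 and 221 (46.7%) like none of these. IAP-like regions, which made up 3116 of the kept regions (64.7%), were thus rarely lost by this rule, which counts a weakened peak as kept. The strongest peak on kept regions had a median fold enrichment of 3.16 and 2.89 in dTAG-13 replicates 2 and 3. In DMSO these medians were 4.80, 4.31 and 4.22. The paper reports loss of H3K9me3 at derepressed ERVs, IAPs among them, and a partial loss at kept regions was not tested here. Of all strong shared regions, 2.55% were lost among the IAP-like, 10.3% among the L1-like, 13.2% among the MMETn-like, 14.7% among the MMERVK-like and 20.2% among those like none of the 4. Full-length MMERVK elements overlapped 26 lost regions (5.5%) and 149 kept regions (3.09%), and full-length MMETn elements 16 (3.38%) and 99 (2.06%). Among partly kept regions these shares were 7.22% and 3.44%, and 11.2% were MMERVK-like, so none of the 3 was particular to lost regions. Within MMERVK, 15 of the 49 MMERVK9C elements that overlap a strong shared region overlapped a lost one, against 5 of 88 MMERVK10C elements.

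**Figure D1:**
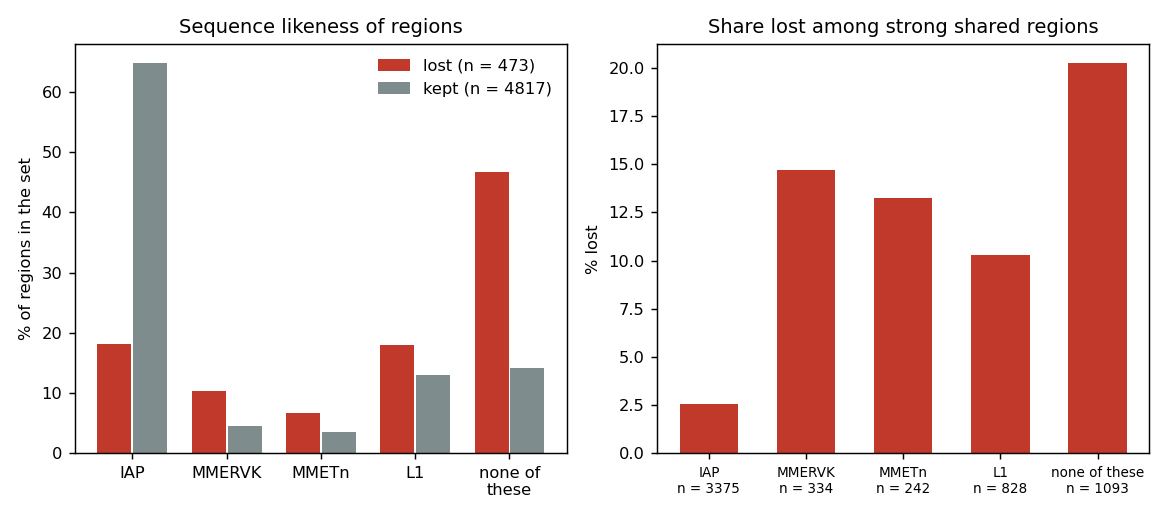
Left, percent of the 473 lost (red) and 4817 kept (grey) regions whose sequence is like IAP, MMERVK, MMETn or L1 elements or none of these. Right, percent lost among the strong shared regions of each kind, with their number under the bars: 2.55% of IAP-like regions and 20.2% of those like no family were lost.

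Seven-letter starts of retroviral primer binding sites were also commoner in lost than in kept regions. TGGCGCC, the start of the site for lysine tRNA, was found in the central 1000 bp of 15.4% of lost, 3.20% of kept and 4.87% of all strong shared regions (both strands), and TGGTGCC and TGGGGGC, the starts for phenylalanine and proline tRNA, in 17.1% and 20.3% of lost regions against 9.83% and 9.30% of all. These short words are no primer binding site by themselves. The window is fixed while widths differ between the sets, and the part of width in these shares was not tested. Of 71 lost regions in which the run after TGGCGCC could be read, 8 went on as tggcgcccaacgtggggc, the sequence of a lysine site, and 12 as tggcgccgcctcagaagc, which is not one.

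Coding exons of zinc finger genes overlapped 7 lost regions (1.48%), against 7 partly kept (1.20%) and 19 kept regions (0.394%). At the lost regions the genes are Zfp30, Zfp37, Zfp110, Zfp335, Zfp420, Zfp629 and Zfp763, which encode DNA-binding proteins with tandem zinc fingers. The widest of these lost regions, at Zfp629, measured 5833 bp at chr7:127608385-127614217 and had fold enrichments of 4.78, 4.87 and 4.00 in DMSO, and that at Zfp30, 2508 bp at chr7:29791961-29794468, had 4.97, 4.03 and 3.78. Neither had a peak of H3K27Ac, MED23 or RNAPII in any library.

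The group of 13 like regions lay on chromosomes 1, 2, 3, 6, 7, 8, 9, 10, 13 and 19, was from 31.7% to 69.2% repeat-masked, and was picked out after the sequences were compared. Among strong shared regions, 31 were like a member of the group: 13 were lost, 7 partly kept and 11 kept. None of the 13 lost members gained H3K27Ac, MED23 or RNAPII. Of the genes tested by RNA-seq near the 13, only Gm34973 and Gm30146 (log2 change 1.11, SE 0.21) changed more than 2-fold at 24 h. Cep295, near the member on chromosome 9, did not (0.29, SE 0.05). Gm34973, a noncoding gene starting 8882 bp from the same member, was listed at 0, 0.181 and 0 TPM in DMSO and at 2.77, 1.93 and 1.60 TPM at 24 h. All 24 h libraries were above all DMSO libraries (log2 change 2.21, SE 0.24). Gm34973 met the filter of at least 1 TPM in at least 3 libraries only through dTAG-13 libraries. Its values are therefore a description without a test.

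H3K27Ac and MED23 peaks were on more lost regions in every dTAG-13 library than in any DMSO library, although the libraries are too few for a p below 0.05. To allow for unequal numbers of called peaks, each library entered with the same number of peaks, those of highest fold enrichment: 30259 for H3K27Ac, 14546 for MED23 and 7689 for RNAPII. H3K27Ac covered 6.55%, 7.19% and 6.55% of lost regions in the DMSO libraries and 17.3%, 20.1% and 15.6% in the dTAG-13 libraries. The groups did not overlap, with means of 6.77% ± 0.366 and 17.7% ± 2.24 (SD, n = 3) and a difference of 10.9 percentage points (two-sided exact permutation p = 0.1, the smallest that 3 against 3 libraries allow). The lowest fold enrichment that entered was 3.29, 3.66 and 3.70 in DMSO but 1.07, 3.75 and 2.74 after dTAG-13. With all deposited peaks the shares were 11.2%, 13.7% and 12.3% and then 17.3%, 35.5% and 18.6%.

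On kept regions H3K27Ac went from 3.45%, 3.55% and 3.47% to 6.06%, 7.37% and 7.25%. The change on lost regions exceeded that on kept regions by 7.52 percentage points (two-sided exact permutation p = 0.1, n = 3 per group). Kept regions hold far more IAP elements, so they were also weighted to the family makeup of the lost regions, a comparison chosen after seeing the data. The share of lost minus that of weighted kept regions was -0.936, -0.614 and -0.789 points in DMSO and 4.58, 4.96 and -0.511 points after dTAG-13. The excess was thus 3.79 points (exact permutation p = 0.1), with dTAG-13 replicate 3 barely above the DMSO libraries.

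MED23 peaks covered 2.96% and 2.54% of lost regions in DMSO and 11.8% and 11.2% after dTAG-13, a difference of 8.77 points (exact permutation p = 0.333, the smallest that 2 against 2 libraries allow). With all deposited peaks the difference was 1.90 points, and the lowest fold enrichment entering the matched sets was 8.20 and 7.92 in DMSO but 3.09 and 1.62 after dTAG-13. On kept regions the share went from 2.14% and 2.08% to 6.06% and 5.94%, and the excess of lost over kept regions, 4.88 points, was 0.420 points against kept regions weighted by family. RNAPII peaks were on 3 lost regions in each DMSO library and on 6 and 7 after dTAG-13 (0.634% and 0.634%, then 1.27% and 1.48%, exact permutation p = 0.333). The lowest fold enrichment that entered was 6.55 and 6.32 in DMSO but 3.29 and 1.19 after dTAG-13, and with all deposited peaks the difference went from 0.740 to 0.211 points (exact permutation p = 0.667).

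**Figure D2:**
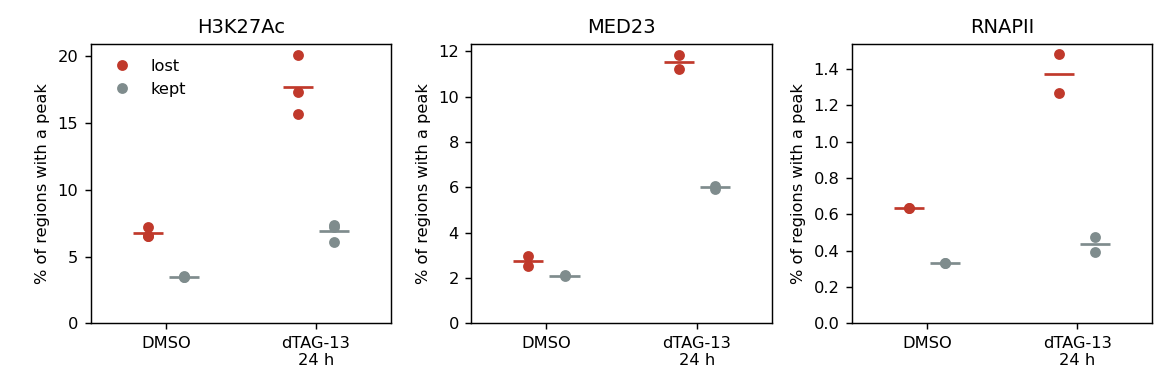
Percent of lost (red) and kept (grey) regions overlapped by a peak of H3K27Ac, MED23 or RNAPII, at a matched number of peaks per library; each point is a library and each line the mean of a group. H3K27Ac on lost regions went from 6.55 to 7.19% in DMSO to 15.6 to 20.1% after dTAG-13, and RNAPII reached at most 1.48%.

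The families again differed. H3K27Ac was on 12.5% ± 3.13 (SD, n = 3) of the 32 MMETn-like lost regions in DMSO and on 40.6% ± 3.13 after dTAG-13, and on 3.4% ± 1.18 and then 22.4% ± 3.53 of the 49 MMERVK-like ones. IAP-like lost regions went from 0% in every DMSO library to 5.43% ± 0.671, and those like none of the families from 9.35% ± 0.942 to 19.2% ± 2.09. Kept MMETn-like regions, which still had H3K9me3 peaks, went from 25.8% ± 1.45 to 70.7% ± 6.5, so H3K27Ac was more common on them than on the lost ones in both conditions.

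Counted region by region, 31 lost regions (6.55%) had an H3K27Ac peak in every dTAG-13 library and in no DMSO library, against 2.69% of all strong shared regions, and 0 showed the reverse. For MED23 there were 37 (7.82%, against 4.26% of all), with 1 reverse, and for RNAPII 5 (1.06%, against 0.221%), with 1 reverse. Of these, 16, 15 and 5 had no deposited DMSO peak of that mark at all, and the others had deposited DMSO peaks below the matched limit. For MED23 that limit was 8.20 and 7.92 in DMSO but 3.09 and 1.62 after dTAG-13. Such a DMSO peak need therefore not be weaker than the dTAG-13 peak, and the part of the unequal limits in these counts was not tested. At least 1 mark was gained by 51 regions and at least 2 by 21. H3K27Ac and MED23 came together on 20 regions. MMETn-like regions gained H3K27Ac in 7 of 32 cases and MMERVK-like ones in 6 of 49, against 3 of 86 IAP-like regions.

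A single lost region gained all 3 marks. It lies at chr11:70365399-70368756, between genes, 13368 bp upstream of the start of Alox15, the gene of arachidonate 15-lipoxygenase, an enzyme that oxidises polyunsaturated fatty acids, and is 82.1% repeat-masked and L1-like. Its H3K9me3 fold enrichment was 4.77, 5.26 and 4.69 in DMSO. H3K27Ac peaks there had a fold enrichment of 13.1, 17.2 and 13.4 after dTAG-13, against none, 3.64 and 3.36 in DMSO. The gene start nearest to this region is that of Gm12312, 7261 bp away. Gm12312 was nearly level at 24 h in RNA-seq (log2 change -0.09, SE 0.16, limma adjusted p = 0.646). Whether the region acts on either gene was not tested.

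The strongest MED23 peak in the Alox15 region had a fold enrichment of 23.8 and 23.2 after dTAG-13, and 4.80 and 3.52 in DMSO, with summits within the bases printed in capitals. RNAPII peaks there had 8.70 and 8.29 after dTAG-13 and were not called in DMSO. Other regions that gained both H3K27Ac and MED23 were an MMERVK-like one at chr3:97132863-97135124 (H3K27Ac from 6.11 to 19.3, MED23 8.93 and 7.30), an L1-like one at chr4:11462330-11464433 (6.25, 6.52 and 11.1, and 13.1 and 13.5) and an MMETn-like one at chr1:156521896-156524322 within 1 kb of the start of Gm10031 (7.10, 10.9 and 8.11, and 6.41 and 6.91). Gm10031 mRNA was nearly level at 24 h (log2 change -0.16, SE 0.04, limma adjusted p = 0.00302), under the 2-fold limit.

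**Figure D3:**
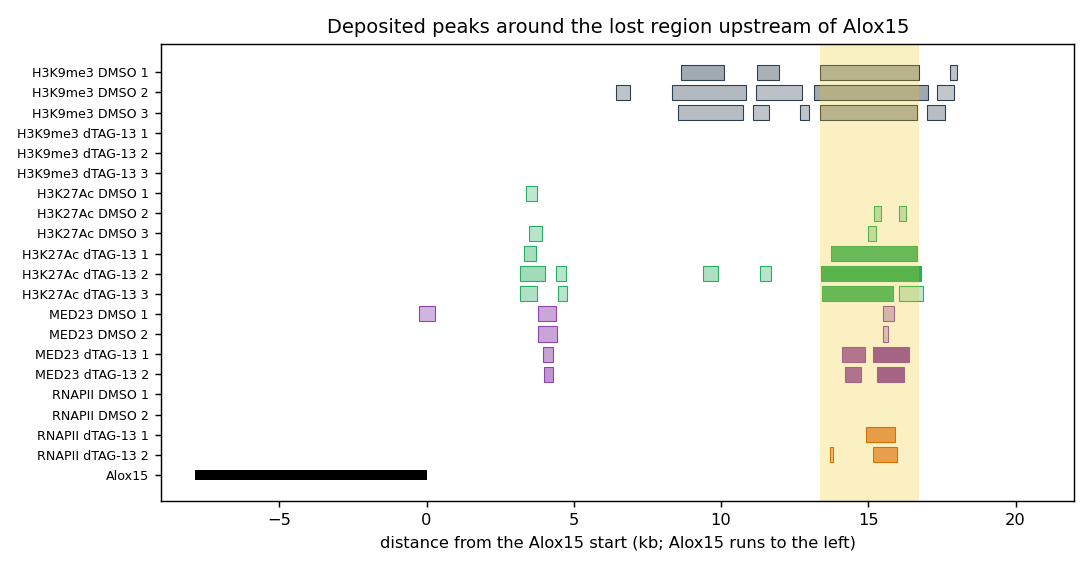
Deposited peaks by library around the lost region (yellow) upstream of Alox15, by distance from the Alox15 start in kb; darker boxes have higher fold enrichment. H3K9me3 peaks are in the 3 DMSO libraries only, and strong H3K27Ac, MED23 and RNAPII peaks, up to a fold enrichment of 23.8, are in the dTAG-13 libraries.

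Genes near lost regions were then examined. Within 20 kb of a lost region 613 genes start, 21 of them inside one, and 342 passed the filter on low values in at least 1 experiment. A gene was called changed at a limma adjusted p below 0.05 over all genes and a change of more than 2-fold. At 24 h 46 of the 288 genes tested by RNA-seq rose (16.0%, exact 95% interval 11.9 to 20.7%), against 10.1% of all genes, and 5 fell (1.74%, against 2.01%). Near kept regions 103 of 752 rose (13.7%) and near partly kept regions 22 of 132 (16.7%), and these differences were not tested.

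The number depended on scaling. With each library centred on its median, which moves the median change of all genes from 0.13 to -0.16 on the log2 scale, 22 near genes rose and 14 fell, and the share of changed genes that were higher went from 83.5% to 49.1% over all genes and from 90.2% to 61.1% near lost regions. The share did not fall steadily with distance: 2 of 14 genes that start inside a lost region rose at 24 h, 2 of 9 up to 1 kb away, 6 of 49 at 1 to 5 kb (12.2%), 18 of 71 at 5 to 10 kb (25.4%), 18 of 145 at 10 to 20 kb (12.4%) and 56 of 403 at 20 to 50 kb (13.9%). By the marks, 4 of 15 genes near regions that gained H3K27Ac rose, 7 of 26 near regions that gained MED23, and 39 of 257 (15.2%) near regions that gained neither. The order was the other way at 96 h (1 of 15, 4 of 26 and 51 of 257) and in TT-SLAM-seq at 24 h (0 of 14, 0 of 22 and 13 of 192 in the limma fit), and none of these differences was tested.

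Alox15 had the largest rise of the near genes at 24 h. It was at 3.00, 3.52 and 3.08 TPM in DMSO, at 4.88, 5.07 and 5.04 TPM at 6 h, at 65.5, 64.9 and 66.7 TPM at 24 h and at 20.0, 21.1 and 28.8 TPM at 96 h. The 6, 24 and 96 h libraries all lay above the DMSO libraries, with log2 changes of 4.16 (SE 0.12, limma adjusted p = 1.22e-11) at 24 h and 2.67 (SE 0.12) at 96 h. In TT-SLAM-seq, where it did not pass the filter, it was at 0, 0.0302 and 0.0111 FPKM in DMSO and at 0.418, 0.662 and 0.548 FPKM at 24 h.

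Asb13, which encodes a substrate receptor of ubiquitin ligases, starts 9587 bp from a lost region that gained MED23 and had H3K27Ac peaks of the matched sets in 2 of the 3 dTAG-13 libraries (deposited peaks in all 3). It went from 6.42, 6.00 and 6.57 TPM to 25.1, 31.2 and 29.2 TPM at 24 h and 32.7, 32.3 and 29.3 TPM at 96 h. Npr2, the receptor of C-type natriuretic peptide, starts 6117 bp from a short region of 708 bp with none of the 3 marks, and went from 1.67, 1.39 and 1.69 TPM to 10.3, 10.6 and 9.70 TPM at 24 h and 37.0, 35.3 and 34.2 TPM at 96 h. For both genes the 24 h and 96 h libraries lay above all DMSO libraries (24 h log2 changes 2.08, SE 0.08, and 2.36, SE 0.09; limma adjusted p = 9.96e-11 and 1.53e-10).

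Other large rises at 24 h were those of Gm11771 (log2 change 3.13, SE 0.22), CT033750.2 (2.08, SE 0.21), Angptl6, an angiopoietin-like secreted protein (2.04, SE 0.14), and Zfp30 (1.90, SE 0.09), with limma adjusted p from 4.85e-10 to 8.97e-07. Gm20499 also rose (2.02, SE 0.77, adjusted p = 0.0321), but its DMSO libraries were at 12.3, 2.03 and 14.1 TPM, and without DMSO replicate 2 the change was 1.21 (adjusted p = 0.171); without any single 24 h library it was 1.91 to 2.09, with adjusted p from 0.057 to 0.0755. Genes that fell were Atp1a4, a sodium pump subunit of sperm (-1.99, SE 0.13), Rfx4, a transcription factor of the developing brain (-1.56, SE 0.10), Gm11841 (-1.10), Ap4s1, a subunit of the AP-4 adaptor (-1.08), and Gm23934 (-1.06). Of the 26 lost regions nearest to genes named for 24 h in RNA-seq or TT-SLAM-seq, 1 gained H3K27Ac and 3 gained MED23, 18 had no peak of the 3 marks in the matched sets of any library and 13 had no deposited peak of them at all.

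**Figure D4:**
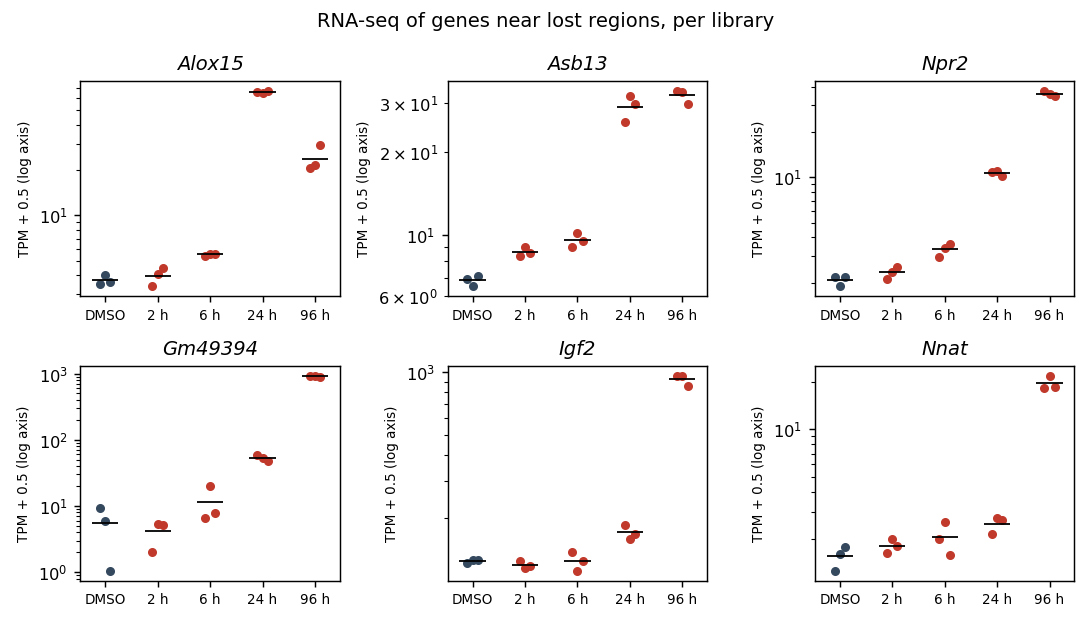
TPM + 0.5 on a log axis for 6 genes that start within 20 kb of a lost region, in DMSO and after 2, 6, 24 and 96 h of dTAG-13; points are libraries and lines group means. Alox15 is highest at 24 h (64.9 to 66.7 TPM), and Gm49394, Igf2 and Nnat are highest at 96 h.

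Of 45 listed imprinted genes 3 start within 20 kb of a lost region (6.67%, against 1.13% of all genes): Nnat, Igf2 and Cdh15, of which Cdh15 was not tested. Nnat and Igf2 both rose at 96 h, as did 18 of the 38 tested genes of the whole list (47.4%). Nnat, a membrane proteolipid of neurons, was at 0.760, 1.13 and 1.29 TPM in DMSO, 1.67, 2.22 and 2.17 TPM at 24 h and 17.7, 21.4 and 17.9 TPM at 96 h. Only the 96 h change was called (log2 change 3.66, SE 0.18, limma adjusted p = 7.32e-11), though the 24 h libraries were also all above DMSO.

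Igf2, a growth factor of the embryo, was at 122, 126 and 125 TPM in DMSO, 185, 158 and 168 TPM at 24 h and 955, 962 and 854 TPM at 96 h (log2 change 2.89, SE 0.07, limma adjusted p = 7.91e-14). Gm49394, whose start lies inside the lost region and whose gene body overlaps Igf2 on the same strand, went from 8.92, 5.53 and 0.542 TPM to 58.1, 51.9 and 47.6 TPM at 24 h and 934, 921 and 900 TPM at 96 h. Reads of these genes cannot be fully told apart, so the division between them is uncertain. In TT-SLAM-seq at 24 h Igf2 rose by a log2 change of 1.01 (SE 0.09) and Gm49394 by 1.04 (SE 0.09). Both lie close to the 2-fold limit, and median centring moved the median log2 change of all genes there from 0.21 to -0.03.

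At 96 h 55 of 288 near genes rose (19.1%), close to the 20.3% of all genes, and 43 fell (14.9%, against 12.4%). With median centring the share of changed genes that were higher went from 62.0% to 44.6% over all genes and from 56.1% to 41.3% near lost regions. Among the rises were Msrb3, a methionine sulfoxide reductase (log2 change 3.11, SE 0.09), and Tuft1 (3.07, SE 0.07), and among the falls Gdf3, a TGF-beta family ligand of pluripotent cells (72.6, 76.4 and 76.4 TPM in DMSO, 9.24, 9.88 and 10.6 TPM at 96 h). At this time the ESC markers were lower and the fibroblast markers higher, as given above, although feeders had been depleted before treatment, and their part in these changes was not tested. In bulk libraries a change in the number of cells of a type and a change per cell cannot be told apart.

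Earlier, few near genes changed. At 6 h 8 of 288 rose (2.78%, against 0.776% of all genes) and 0 fell (against 0.19%), with 46 lower at an unadjusted p below 0.05 in limma. At 2 h 3 rose (1.04%, against 0.251%) and 0 fell (against 0.123%), with 37 lower at an unadjusted p below 0.05 in limma. Among the genes that rose were the microRNA gene Mir7060, at 0.352, 0.398 and 0.314 TPM in DMSO and 1.53, 2.37 and 2.08 TPM at 2 h, and the small RNA gene Gm23134 in the Nnat region. Mir7060 met the filter of at least 1 TPM only through dTAG-13 libraries, so its values are a description without a test. With only genes of a mean of at least 5 TPM, 0 near genes rose at either time.

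New RNA gave fewer calls than RNA-seq. In TT-SLAM-seq at 24 h 13 of 219 near genes rose (5.94%, against 2.49% of all genes) and 2 fell (0.913%, against 0.906%), and near kept regions 15 of 400 rose (3.75%). Near partly kept regions 7 of 98 rose (7.14%), and these differences were not tested. With pseudocounts of 0.1 and 1 in place of 0.5, 24 and 4 genes near lost regions rose. With median centring 4 near genes rose and 4 fell, and the share of changed genes that were higher went from 73.3% to 36.9% over all genes. At 2 h 0 rose (against 0.127%) and 1 fell (against 0.0973%), and at 6 h 0 rose (against 0.374%) and 2 fell (against 0.195%), while 13 and 51 were higher at an unadjusted p below 0.05 in limma.

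Bmf, a pro-apoptotic protein of the BCL-2 family, rose from 0.282, 0.231 and 0.251 FPKM to 1.23, 1.34 and 1.28 FPKM in TT-SLAM-seq at 24 h, and Acot1, an acyl-CoA thioesterase, from 1.68, 1.55 and 1.68 to 5.18, 4.39 and 5.47 FPKM. Klf10, a transcription factor induced by TGF-beta, went from 3.84, 4.84 and 4.43 to 9.14, 10.6 and 10.8 FPKM. All 24 h libraries of these genes were above all DMSO libraries. The log2 changes were 1.24 (SE 0.08), 1.36 (SE 0.09) and 1.14 (SE 0.11). With median centring Bmf and Klf10 were under the 2-fold limit (1.00 and 0.89). Bmf met the filter on low values only through dTAG-13 libraries, so its values are a description without a test.

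Of 454 zinc finger genes 17 started near lost regions (3.74%, antisense genes included), against 613 of all 54409 genes (1.13%). A further 45 of the 454 started near kept regions, against 3201 of all 54409 genes. Of 16 tested by RNA-seq at 24 h, 3 rose (18.8%, against 6.65% of the whole list and the 10.1% of all genes), Zfp30, Zfp420 and Zfp688, and 0 fell; with median centring Zfp688 was no longer called. Zfp30 went from 2.14, 2.11 and 1.79 TPM to 9.28, 8.88 and 8.37 TPM, Zfp420 from 5.54, 5.46 and 5.5 to 14.1, 15.0 and 13.6 TPM. In TT-SLAM-seq 2 of 12 rose (16.7%, against 1.04% of the list and the 2.49% of all genes), Zfp30 and Zfp629 (log2 changes 1.09 and 1.07), and 0 with median centring. The genes with a lost region over their own exons thus included 3 that rose in either assay, Zfp30, Zfp420 and Zfp629, and others such as Zfp110 (24 h log2 change -0.41, SE 0.05) and Zfp335 (-0.06, SE 0.06) that did not.

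Of the other lists, 1 of 29 genes of H3K9me3 writers, readers and partners of TRIM28 was near a lost region, Setdb1 itself, at 74.7, 76.3 and 78.3 TPM in DMSO and 82.1, 84.1 and 84.4 TPM at 24 h. Receptors of smell and pheromones had 27 of 1977 members nearby (1.37%), none of them expressed enough to be tested. The lists of 2-cell genes (21), germline genes (15) and clustered protocadherins (58) had 0 members nearby. Cthrc1, a secreted collagen-associated protein that the study singles out beside ERVs, starts 54405 bp from the nearest lost region, and rose from 16.6, 18.3 and 14.5 TPM to 236, 247 and 239 TPM at 24 h (log2 change 3.84, SE 0.09, limma adjusted p = 2.42e-12).

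In the shERV line, near genes were compared with and without hairpins against ERV RNA. No group had Dox without dTAG-13. Effects of Dox or of the hairpins themselves therefore cannot be told apart from those of less ERV RNA. With dTAG-13 alone 20 of 268 near genes rose (7.46%, against 2.38% of all genes) and 3 fell (1.12%, against 1.44%), and near kept regions 70 of 637 rose (11.0%). With Dox before dTAG-13, compared with dTAG-13 alone, 2 near genes were higher (0.746%, against 1.49%) and 13 lower (4.85%, against 1.96%). Near kept regions 59 of 637 were lower (9.26%) and near partly kept regions 7 of 121 (5.79%), and these differences were not tested. Both comparisons use the same dTAG-13 libraries, so a gene that is high by chance in them would rise in the first and fall in the second. With median centring the share of changed genes that were higher went from 62.4% to 41.1% over all genes in the first comparison and from 43.2% to 53.8% in the second, and near lost regions from 87.0% to 82.4% in the first.

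Alox15 was at 1.46, 1.36 and 1.23 TPM in DMSO, 48.7, 44.7 and 44.8 TPM with dTAG-13 and 1.51, 1.47 and 1.22 TPM with Dox and dTAG-13. The Dox libraries thus lay in or next to the DMSO range (log2 change against dTAG-13 alone -4.62, SE 0.09, limma adjusted p = 4.84e-11). Gm49394 was at 2.69, 5.38 and 7.71 TPM, then 160, 164 and 167 TPM, then 7.13, 5.77 and 8.47 TPM. Igf2, which overlaps it, stayed at 377 to 408, 416 to 457 and 409 to 414 TPM and was not called in either comparison.

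Angptl6 (0.932 to 1.59 TPM in DMSO, 7.06 to 8.28 TPM with dTAG-13, 1.48 to 2.05 TPM with Dox), Asb13 (5.74 to 6.29, 17.8 to 19.6 and 6.05 to 7.25 TPM) and CT033750.2 (0 to 0.0553, 2.96 to 3.28 and 0 to 0.155 TPM) followed the same order, and Gm34973 was listed at 0 in all DMSO and all Dox libraries and at 2.09, 1.40 and 2.18 TPM with dTAG-13. In each of these genes the dTAG-13 libraries lay above all others. Gm34973 and CT033750.2 met the filter on low values only through their dTAG-13 libraries, so for them this order is a description without a test. The summed ESC markers moved too, from 1449 to 1609 TPM in DMSO, 841 to 853 TPM with dTAG-13 and 1519 to 1553 TPM with Dox, and their part in these changes was not tested.

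**Figure D5:**
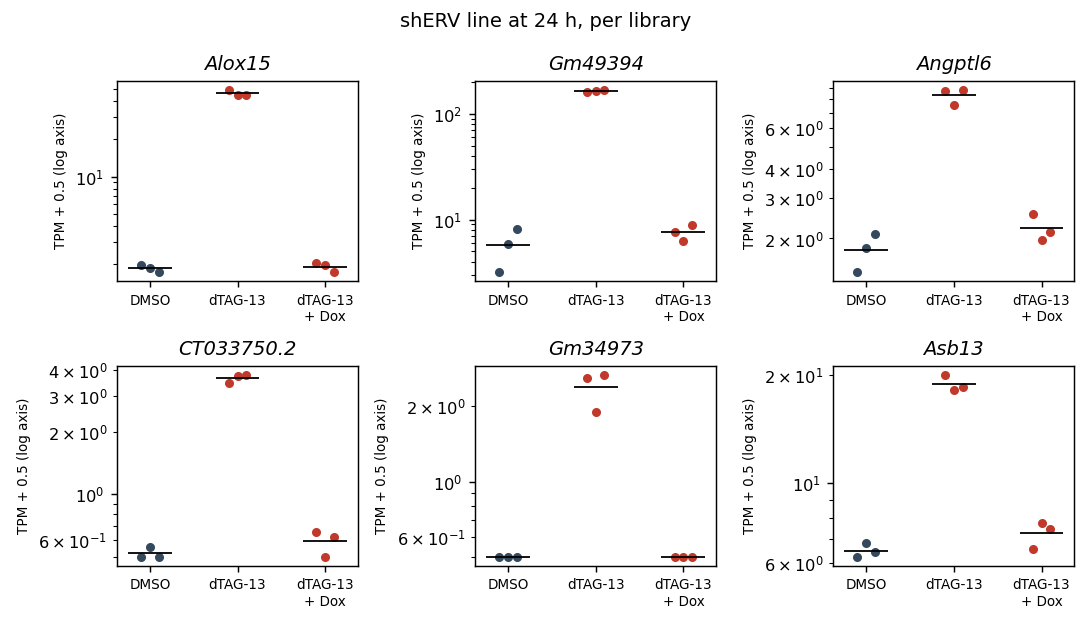
TPM + 0.5 on a log axis in the shERV line for 6 genes that start within 20 kb of a lost region, in DMSO, after 24 h of dTAG-13 and with Dox before dTAG-13; points are libraries and lines group means. In all 6 the dTAG-13 libraries are above the others, as for Alox15 at 44.7 to 48.7 TPM against 1.22 to 1.51 TPM.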

How the data were processed

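Members and gene lists were chosen with earlier results of these data known. Versions are from the submitters' processing notes. ChIP-seq reads were trimmed (cutadapt 2.4) and mapped with BWA to mm10, and the authors called peaks per library with MACS2; settings of the caller are not given in the sources used here. Each deposited peak carries a fold enrichment, a ratio within its own library, and deposited −log10 p and q values, and the columns hold no scaling by the Drosophila cells added to the samples. For RNA-seq the authors deposited StringTie 2.0.6 tables (STAR 2.7.5a) of TPM per gene, which are relative within a library, with FPKM. The read coverage signal in these deposited tables grows with depth and was used for nothing but a depth check. The deposited TT-SLAM-seq FPKM are reads with T-to-C conversions that the authors counted by strand, scaled to gene length and to the total counted.

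Regions were overlapped at 1 bp. Gene starts, exons and positions come from GENCODE vM21 and bases from the RefSeq copy of GRCm38, the build of the files. Family likeness came from blastn 2.17.0 against up to 15 genomic elements per subfamily (at least 100 aligned bp). Genes with at least 1 TPM (0.5 FPKM) in at least 3 libraries were fitted on log2 of the value + 0.5, which understates changes of low genes, with limma 3.58.1 (lmFit, eBayes with trend) in R 4.3.3, in 1 fit per experiment, with Benjamini-Hochberg adjustment over all genes. A gene low in DMSO could pass this filter through its dTAG-13 libraries alone. Fits were tested on simulated data. Mark shares were compared by exact permutation over libraries; intervals are exact binomial and cover counting error only. Named are the 10 largest rises and 5 largest falls at 24 h and 96 h (5 and 3 for other contrasts) among changed genes without overlap of groups, and list members near lost regions, of which the text gives a selection. Alternatives are in the closing section.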

Additional observations from a re-analysis of the deposited data

Results flagged for a closer look

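Pxt1, a testis gene that starts 2779 bp from a lost region, and Gm16233, an antisense gene 8094 bp from another, moved in opposite directions at 24 h and at 96 h. Pxt1 was at 2.71 TPM on average in DMSO, 6.05 TPM at 24 h and 0.958 TPM at 96 h (log2 changes 1.03 and -1.14, SE 0.20). Gm16233 was at 16.0, 38.9 and 4.16 TPM (1.25 and -1.82, SE 0.13). In each gene all 3 libraries of 24 h lay above and all 3 of 96 h below the DMSO libraries, but both changes are against the same DMSO libraries and the difference between them was not tested.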

How the results depend on the processing

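The number of lost regions was 107 with the top 5000 and 1540 with the top 20000 peaks, and 663 to 865 when only 1 of the dTAG-13 libraries had to lack a peak. Using the 5000 strongest peaks, the H3K27Ac difference on lost regions was 6.27 points and its excess over kept regions 4.32, the MED23 values were 6.13 and 2.93, and the RNAPII difference was 0.951. With all deposited peaks MED23 gave 1.90 and 2.49 and RNAPII 0.211, and with peak midpoints within 1 kb MED23 gave 12.6 and 8.08 and RNAPII 1.90 and 1.86; at the matched number of peaks, family weights gave an excess of 3.79 for H3K27Ac and 0.420 for MED23. Leaving out each library gave 9.73 to 11.9 and 6.56 to 8.72 for H3K27Ac, 8.46 to 9.09 and 4.63 to 5.14 for MED23, and 0.634 to 0.846 and 0.489 to 0.783 for RNAPII. The cause of these shifts was not tested.

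The share of near genes that rose at 24 h was 9.86% without a filter and 7.64% with median centring, and 11.8% at 96 h without a filter; with a mean of at least 5 TPM it was 0 at 2 h and 6 h. In TT-SLAM-seq at 24 h it was 11.0% and 1.83% with pseudocounts of 0.1 and 1, 3.04% without a filter, 11.1% with a mean of at least 5 FPKM (18 genes), 1.83% with centring and 13.7% within 5 kb. In the shERV line it was 4.33% without a filter, and 11.1% of genes within 5 kb fell with Dox. Leaving out each library gave 0.694 to 1.04%, 1.74 to 3.13%, 15.3 to 16.3% and 18.4 to 19.8% at 2, 6, 24 and 96 h, 0 to 0.457%, 0 to 0.457% and 5.02 to 6.85% at 2, 6 and 24 h of TT-SLAM-seq, and 5.97 to 7.84% and 5.22 to 5.97% in the shERV line. No call changed sign; under the settings other than leaving out a library, 29 of 354 calls of named genes were lost, and 36 of 396 on leaving one out. In no contrast did the deviations of all 3 same-numbered pairs correlate above 0.1 (correlations from -0.205 to 0.177), so the numbers were not taken as pairs, and with the replicate block 46 near genes rose at 24 h in RNA-seq (15.97%), 14 in TT-SLAM-seq (6.39%) and 7 at 6 h, and the mark differences stayed at 10.9, 8.77 and 0.740 points (exact sign-flip p = 0.25, 0.5 and 0.5). Peak files hold no read numbers, so absence of a weak peak cannot be told from lack of depth.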
